A study of Homo sapiens with 6 samples.

Results

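The libraries described here are those of undifferentiated NB4 cells in DMSO in which SMARCD2 was knocked down: 3 of the 6 RNA-seq libraries of the series, chosen by their labels. NB4 is a human acute promyelocytic leukemia cell line, whose cells are blocked at a promyelocyte-like stage and can be driven to granulocytes by all-trans retinoic acid, called ATRA below. The control library came from cells labelled as control, whose columns carry the mark scr. The knockdown libraries came from cells with 1 of 2 short hairpin RNAs against SMARCD2, labelled shRNA1 and shRNA2 and called hairpin 1 and hairpin 2 below. All 3 groups of cells received DMSO, the vehicle, diluted 1 in 10000, and the other 3 libraries are the same constructs in ATRA at 1 µM. The labels do not say how long the treatment lasted, whether the cells of a hairpin are a pool or 1 clone, or whether libraries came from separate cultures.

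SMARCD2 is one of 3 interchangeable subunits, with SMARCD1 and SMARCD3, of the BAF family of SWI/SNF complexes, which use ATP to move or evict nucleosomes and so open enhancers and promoters. In the myeloid lineage it is known to act with the transcription factor CEBPE in the making of neutrophil granules, and inherited loss of SMARCD2 causes a deficiency of specific granules. In undifferentiated promyelocytic cells the azurophil granule program is active and that of the specific granules is not.

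With 1 control library, each hairpin has 1 ratio to that control, which has no replicate check, and both ratios share the control, so that a chance deviation of the control moves both the same way. Levels are given in CPM, counts scaled to the library size after TMM (a trimmed mean of log ratios between libraries), and they compare a gene between libraries, not genes with each other. A ratio is the log2 of a hairpin's CPM over that of the control, so that 1 means 2-fold. The control held 29291209 counts, hairpin 1 held 58099733 and hairpin 2 held 41846630, each from 2 count columns taken as sequencing runs. Run 1 gave 54.6% of the counts of the control but 80.7% and 70.6% of those of the hairpins, and what this mix of runs adds to a ratio is shown by ratios within a run. Counting intervals (95%, exact binomial) cover counting error only.

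SMARCD2 stood at 99.9 CPM in the control, 40.8 under hairpin 1 and 26.9 under hairpin 2. Both knockdown libraries were thus below the control, at 0.409 and 0.269 times its level, and the lower of them was hairpin 2. The log2 ratio was -1.29 with hairpin 1 (counting interval -1.37 to -1.21) and -1.89 with hairpin 2 (-1.99 to -1.79). In the edgeR quasi-likelihood test of both hairpins against the control, with 1 residual degree of freedom from the spread between the hairpins, the log2 fold change was -1.55 ± 0.20 (SE, n = 2 against 1; adjusted p = 0.185). The lone control is assumed there to vary like the hairpins. In bulk RNA, fewer cells with a transcript and less of it per cell cannot be told apart.

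The paralogs that can take the place of SMARCD2 in the complex were at or below the control. SMARCD1 stood at 89.6, 77.6 and 87.0 CPM in the control, hairpin 1 and hairpin 2, and SMARCD3 at 42.1, 37.0 and 30.4 CPM. Neither was above the control with either hairpin. SMARCD3, with log2 ratios of -0.19 and -0.47, had the edgeR adjusted p of 0.798. Of 30 listed genes for subunits of BAF, PBAF and ncBAF, 7 were above the control with both hairpins and 14 below it, with list medians of -0.08 and -0.01. Over all 12752 genes 34.8% were above the control with both hairpins and 35.1% below it, and the medians were 0.00076 and -0.0018. Besides SMARCD2 and SMARCD3, the members of at least 5 CPM furthest below with both hairpins were GLTSCR1, the scaffold subunit of the noncanonical complex, at 65.1, 50.5 and 53.5 CPM, and the core subunit SMARCB1 at 79.3, 69.0 and 70.4 CPM. CEBPE stood at 43.4 CPM in the control, 48.3 under hairpin 1 and 36.8 under hairpin 2, on opposite sides of the control.

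Over all genes the ratios were small. Among the 10293 genes whose mean level reached 5 CPM, the SD of the log2 ratio was 0.15 for hairpin 1, 0.19 for hairpin 2 and 0.16 for hairpin 2 over hairpin 1. At least 1.5-fold from the control were 57 of them with hairpin 1 and 176 with hairpin 2, and 107 were that far apart between the hairpins. The gap between the 2 knockdown libraries was thus of the same order as that from either to the control. Over all 12752 genes, where low counts widen the ratios, hairpin 1 was at least 1.5-fold above the control for 1.87% and below it for 3.11%, hairpin 2 for 3.85% and 3.05%, and both together for 1.29% and 1.3%. Of the 10293 genes, with both hairpins, 26 (0.253%) were at least 1.5-fold above the control and 16 (0.155%) at least 1.5-fold below it. The edgeR test called 0 of 12752 genes (0%) at an adjusted p under 0.05, with 774 genes (6.07%) at an unadjusted p under 0.05 and the smallest adjusted p 0.0757, for TMEM160. By limma-voom 0 genes were called (588 at an unadjusted p under 0.05), and DESeq2 called 21 genes above and 3 below the control. SMARCD2 (DESeq2 adjusted p = 0.356) and HGF (DESeq2 adjusted p = 0.763) were not among them. The genes of the lists below that DESeq2 called were BNIP3, PFKFB4, P4HA1 and DDIT4 of the hypoxia list, PGK1 and ENO2 of glycolysis, the metallothioneins MT1A and MT2A, the interferon-stimulated IFI44L and OAS2, and FCGR2C, INSIG1, AZU1 and SRGN, all above the control.

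The gene furthest above the control with both hairpins was HGF, which encodes hepatocyte growth factor, the ligand of the receptor kinase MET. It stood at 25.7 CPM in the control, 61.98 under hairpin 1 and 104 under hairpin 2, or 2.42-fold and 4.05-fold. The hairpin with less SMARCD2 transcript had more HGF, in 2 libraries that give no test of such an order. The edgeR log2 fold change was 1.69 ± 0.29 (SE; adjusted p = 0.35), and the ratios ran from 1.28 to 2.10 over both hairpins and both runs.

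Among the other genes furthest above the control, the list is a mix of membrane, signalling and stress genes at low to middle levels. TNS1, which encodes a focal adhesion protein, stood at 2.99, 5.85 and 6.79 CPM in the control, hairpin 1 and hairpin 2. RGS2, a regulator of G protein signalling, stood at 5.74, 10.6 and 10.2 CPM. SGK1, a serum- and glucocorticoid-responsive kinase, stood at 6.38, 11.2 and 11.2 CPM. In each of these genes the hairpins lay closer to each other than to the control. Genes were picked by the smaller of their 2 ratios, which favours such a pattern. PPFIA4, which encodes a liprin scaffold protein, stood at 10.6, 17.5 and 20.4 CPM, and the lectin receptor gene CLEC2B at 4.96, 8.18 and 10.8 CPM. The remaining genes of these 12 belong to the hypoxia, metallothionein and Fc receptor groups described below. Their counts in the control ran as low as 88 for TNS1, where the counting interval of the log2 ratio with hairpin 1 was 0.63 to 1.33.

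**Figure D1:**
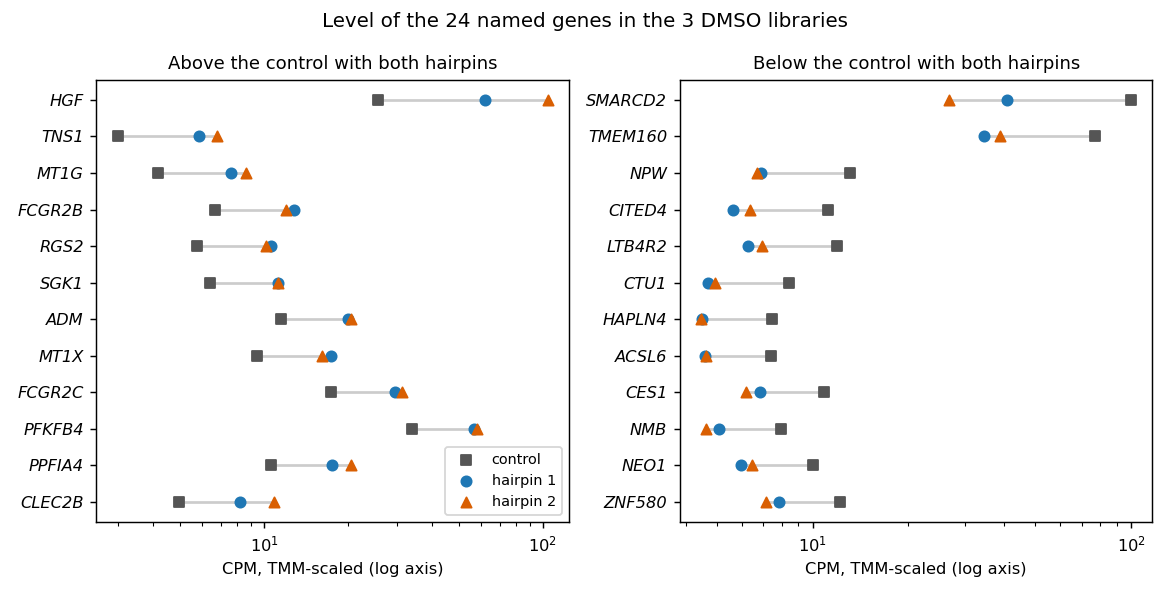
Level in CPM, on a log axis, of the 12 genes furthest above and the 12 furthest below the control with both hairpins, with 1 symbol per library (grey square control, blue circle hairpin 1, orange triangle hairpin 2). HGF and SMARCD2 have hairpin 2 furthest from the control, at 104 and 26.9 CPM, while most other genes have both hairpins close together. Choosing genes by the smaller of their 2 ratios favours this.

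The genes induced in low oxygen were above the control with both hairpins nearly throughout the list. These genes are known targets of the HIF transcription factors, which are stabilized when prolyl hydroxylases lack oxygen and which bind a short hypoxia response element with the core ACGTG. Of 22 listed members, 20 were above the control with both hairpins and 0 below it with both, against 34.8% above in the background of all genes. The list medians were 0.38 with hairpin 1 and 0.33 with hairpin 2. By edgeR 17 of the 22 had an unadjusted p under 0.05, against 6.07% of all genes, and 0 an adjusted p under 0.05. The edgeR adjusted p of PFKFB4 and that of BNIP3 were both 0.173. By DESeq2 the adjusted p was 3.45e-07 for BNIP3, 0.000205 for PFKFB4, 0.0436 for P4HA1 and 0.0498 for DDIT4. ADM, with a DESeq2 adjusted p of 0.0835, was not called.

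BNIP3, a mitochondrial protein of mitophagy and cell death, stood at 181 CPM in the control, 271 under hairpin 1 and 273 under hairpin 2. PFKFB4, an enzyme that sets the level of the glycolytic activator fructose 2,6-bisphosphate, stood at 33.9, 56.7 and 57.9 CPM. ADM, the vasodilator peptide adrenomedullin, stood at 11.5, 19.9 and 20.5 CPM. In all of these genes the hairpins lay close together and apart from the control. These genes were picked by the smaller of their 2 ratios, which favours this. SLC2A3, a glucose transporter, stood at 75.6, 102 and 101 CPM. BNIP3 had ratios of 0.58 (counting interval 0.54 to 0.63) and 0.59 (0.55 to 0.64), and over the runs they kept between 0.55 and 0.62. The 2 members that were not on one side were VEGFA, the angiogenic growth factor, at 233, 234 and 225 CPM, and ANKRD37, at 5.30, 6.20 and 3.98 CPM. They are named here because they are the exceptions, after their values were seen.

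The promoter of BNIP3 is shown because BNIP3 had the most counts of the hypoxia genes named. It is the 250 bases before the RefSeq start in GRCh38.p14 (chr10:131981924-131982173, minus strand), written 5′ to 3′ along the gene, with the ACGTG matches of both strands in capitals; they overlap as the 2 strands of 1 palindrome.
BNIP3: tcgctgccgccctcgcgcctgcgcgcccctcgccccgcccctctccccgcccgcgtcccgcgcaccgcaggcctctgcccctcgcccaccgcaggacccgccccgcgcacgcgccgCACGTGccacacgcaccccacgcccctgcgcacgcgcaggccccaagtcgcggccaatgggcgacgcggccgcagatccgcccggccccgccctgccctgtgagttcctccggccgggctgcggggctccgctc
Searched on both strands in such windows, ACGTG was found in 9 of the 17 members with a promoter sequence (52.9%) and in 23.0% of 9858 promoters of genes in the table. The windows of ADM and PFKFB4, also named above, held 0 matches. A match describes the letters only.

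Glycolysis genes, several of which are also HIF targets, were above the control with both hairpins in 14 of 17 and below it in 2, with medians of 0.17 and 0.13. The shift was uneven along the pathway and by isozyme. ENO2, the gamma enolase, stood at 27.2, 42.5 and 41.8 CPM in the control, hairpin 1 and hairpin 2, while ENO1, the alpha enolase, stood at 1272, 1388 and 1395 CPM. ALDOC, an aldolase, stood at 29.9, 44.2 and 39.8 CPM. PGK1, phosphoglycerate kinase, stood at 638, 851 and 821 CPM, 1.34-fold and 1.29-fold above the control. SLC16A3, which exports lactate, stood at 122, 146 and 153 CPM. GAPDH, at 2277, 2347 and 2272 CPM, and LDHA, at 609, 770 and 636 CPM, show the spread among abundant enzymes, with ratios of 0.04 and -0.0028 for GAPDH and of 0.34 and 0.06 for LDHA; both were named after their values were seen, as was ENO1. Of the 17 genes of this list 8 had an unadjusted p under 0.05 by edgeR, against 6.07% of all genes.

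**Figure D2:**
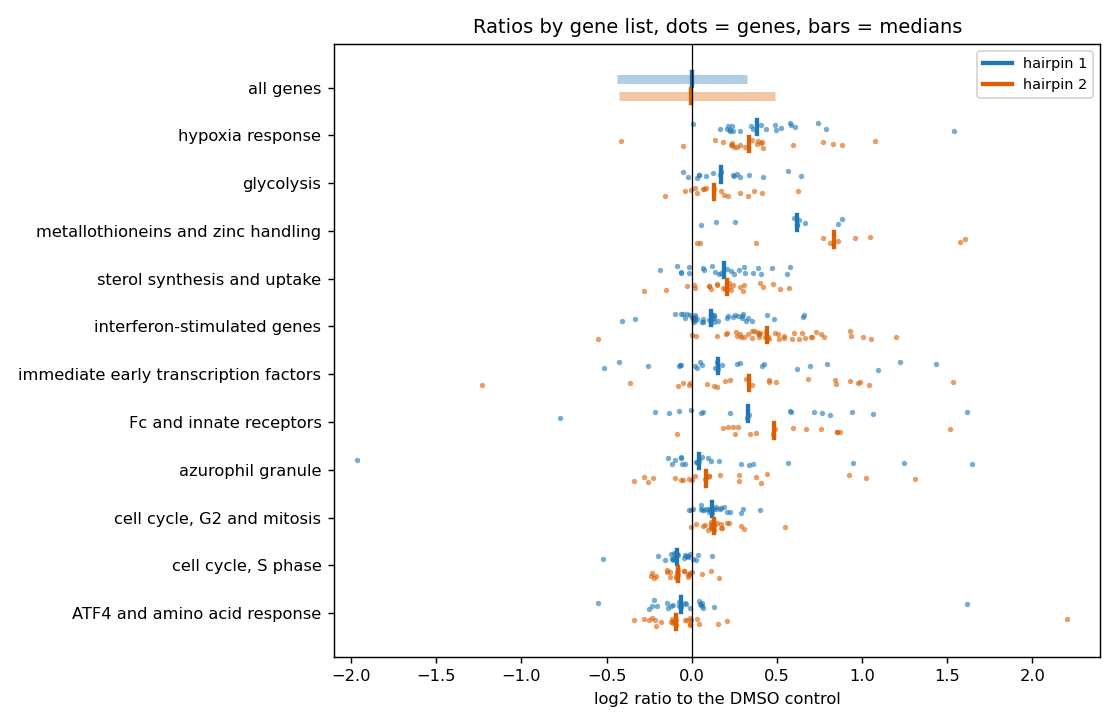
Log2 ratio to the DMSO control of each listed gene (dots), by gene list, for hairpin 1 (blue) and hairpin 2 (orange), with the list median as a bar; for all genes the band spans the 5th to 95th percentile, and a few genes at low counts lie outside the axis. The hypoxia medians are 0.38 and 0.33, and the interferon medians are apart, at 0.11 and 0.44.

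Metallothionein genes encode small cysteine-rich proteins that bind zinc, copper and cadmium and are induced by metals through metal response elements. All 10 listed genes for metallothioneins and zinc handling were above the control with both hairpins, with medians of 0.62 and 0.84, and 7 of them were at least 1.5-fold above with both, against 1.29% of all genes. MT1X stood at 9.40 CPM in the control, 17.4 under hairpin 1 and 16.1 under hairpin 2. MT1G stood at 4.18, 7.59 and 8.62 CPM, MT1F at 4.31, 6.82 and 8.39 CPM, and MT1A at 36.5, 56.0 and 66.3 CPM. The metallothionein genes are near copies of each other, so reads can be shared and the number of independent members is smaller than 10. The 3 genes outside the family had ratios of at most 0.38: the zinc-sensing factor MTF1 stood at 17.6, 18.3 and 18.2 CPM, and the zinc exporter SLC30A1 at 8.83, 10.5 and 11.5 CPM. For MT1X the edgeR log2 fold change was 0.83 ± 0.15 (SE; adjusted p = 0.35).

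The promoter of MT1X, shown because its values are given in full above, held 4 matches to the metal response element, searched as TGCACNC or TGCGCNC on both strands and shown here in capitals (chr16:56682220-56682469, plus strand, GRCh38.p14, RefSeq).
MT1X: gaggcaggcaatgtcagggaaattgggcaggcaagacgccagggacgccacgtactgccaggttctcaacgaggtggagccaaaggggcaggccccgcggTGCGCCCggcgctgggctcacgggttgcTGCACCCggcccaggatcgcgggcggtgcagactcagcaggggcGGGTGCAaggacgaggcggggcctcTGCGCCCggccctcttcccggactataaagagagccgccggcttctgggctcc
In the promoter of MT2A there were 7 matches, in that of SLC30A1 1, and in those of MTF1 and SLC39A10 0. Such a match was thus in 3 of 5 members with a promoter sequence (60.0%) and in 33.0% of all 9858 promoters.

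Interferon-stimulated genes, an antiviral program turned on by interferon receptors, were above the control with both hairpins in 35 of 44 (27 of 44 with libraries scaled to total counts) and below it with both in 1. The size differed between the hairpins, with a median of 0.11 for hairpin 1 and 0.44 for hairpin 2. That difference is between 1 library and 1 and was not tested. IFI44L stood at 14.6 CPM in the control, 22.9 under hairpin 1 and 33.5 under hairpin 2. IFIT3, which binds viral RNA with its partner IFIT1, stood at 14.5, 18.2 and 27.7 CPM. OAS2, an oligoadenylate synthetase that senses double-stranded RNA, stood at 72.2, 101 and 118 CPM. In each of these the order was control, hairpin 1, hairpin 2. IFIT2 stood at 11.1, 14.1 and 16.6 CPM. The member below the control with both was the exonuclease gene ISG20, at 1.29, 0.972 and 0.882 CPM, named after its values were seen. By edgeR the log2 fold change of IFI44L was 0.95 ± 0.22 (SE, adjusted p = 0.523). Of the 44 genes 14 had an unadjusted p under 0.05 by edgeR, against 6.07% of all genes. With hairpin 1 left out, in a fit over both treatments where the lone DMSO hairpin library is assumed to vary like those in ATRA, 21 genes were called, among them IFI44L (adjusted p = 0.0424), IFIT3 (0.0423) and OAS2 (0.0423). With hairpin 2 left out 0 genes were called, with 762 at an unadjusted p under 0.05 by edgeR.

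The promoters of IFI44L and IFIT3, which had the widest gaps between the hairpins of the members named, are given with the core of the interferon-stimulated response element in capitals: TTTC, any 2 bases and TTTC again, on either strand. They lie at chr1:78620198-78620447, plus strand, and chr10:89327747-89327996, plus strand (GRCh38.p14, RefSeq).
IFI44L: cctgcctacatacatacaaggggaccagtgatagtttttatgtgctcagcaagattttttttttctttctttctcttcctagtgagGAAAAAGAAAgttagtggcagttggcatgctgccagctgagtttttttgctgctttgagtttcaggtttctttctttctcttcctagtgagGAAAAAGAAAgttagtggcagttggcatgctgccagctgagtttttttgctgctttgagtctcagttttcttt
IFIT3: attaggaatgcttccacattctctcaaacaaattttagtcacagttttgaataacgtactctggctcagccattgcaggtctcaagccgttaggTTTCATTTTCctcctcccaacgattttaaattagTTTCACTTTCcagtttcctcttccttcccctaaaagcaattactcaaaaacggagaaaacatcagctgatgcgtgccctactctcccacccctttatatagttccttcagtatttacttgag
This core was in 20 of 34 members with a promoter sequence (58.8%), against 2.3% of all promoters. The window of IFI44L holds it 2 times on the strand opposite to the gene, and that of IFIT3 2 times on the strand of the gene.

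**Figure D3:**
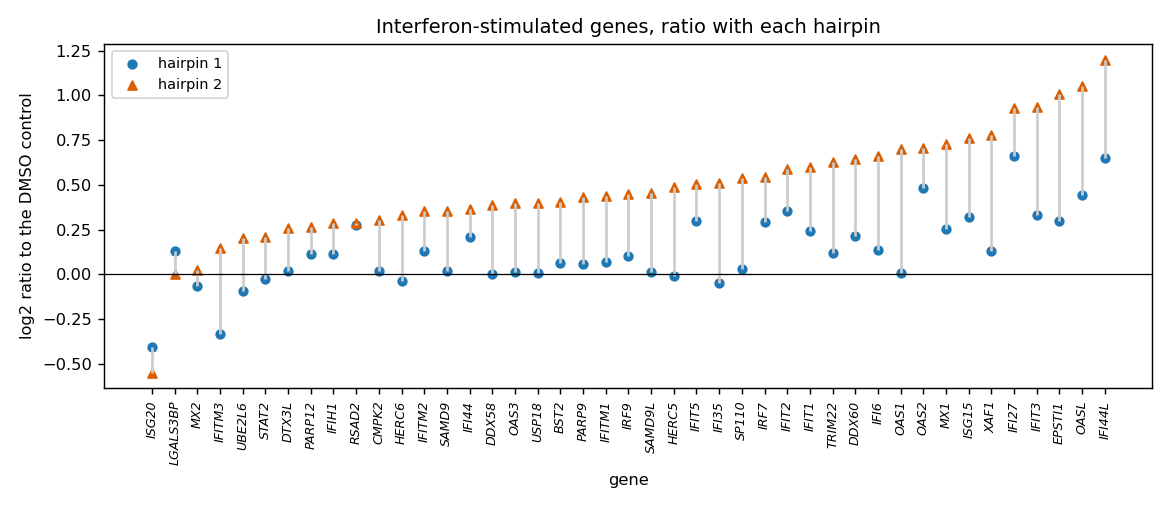
Log2 ratio to the DMSO control of listed interferon-stimulated genes, ordered by hairpin 2 (orange triangles), with hairpin 1 (blue circles) joined by a line. IFI44L, at 0.65 and 1.20, is at the right end, and the hairpin 2 values lie above those of hairpin 1 for most genes.

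Immediate early genes, many of which encode transcription factors, are turned on by growth signals within minutes. They were above the control with both hairpins in 16 of 24 and below it in 4, with medians of 0.15 and 0.34. EGR1 stood at 7.54 CPM in the control, 12.2 under hairpin 1 and 21.8 under hairpin 2. KLF4, a factor of monocyte differentiation, stood at 6.82, 10.5 and 14.03 CPM, and ZFP36, which destabilizes cytokine mRNAs, at 4.38, 5.89 and 7.84 CPM. These 3 were highest with hairpin 2. JUND went the other way, at 24.9, 17.4 and 19.4 CPM. By edgeR the log2 fold change of EGR1 was 1.17 ± 0.33 (SE; adjusted p = 0.659). The EGR1 promoter, shown since it alone of the 20 in the list with a sequence held the CArG box, the site of serum response factor (1.0% of all promoters), has 2 of them in capitals (chr5:138465229-138465478, plus strand, GRCh38.p14, RefSeq).
EGR1: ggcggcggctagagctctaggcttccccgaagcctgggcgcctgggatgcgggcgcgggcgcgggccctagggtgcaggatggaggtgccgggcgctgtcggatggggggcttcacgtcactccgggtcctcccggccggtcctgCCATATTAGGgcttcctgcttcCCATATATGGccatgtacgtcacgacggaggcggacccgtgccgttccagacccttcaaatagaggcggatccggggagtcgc
Of the NF-kB target list 11 of 21 were above the control with both hairpins and 6 below, against 34.8% and 35.1% of all genes. CCL20, a chemokine, stood at 5.87, 8.20 and 8.32 CPM, and TNFAIP3, an inhibitor of NF-kB signalling, at 35.5, 45.0 and 50.5 CPM. Of the genes that feed back on MAPK signalling 8 of 12 were above and 1 below, with the ERK phosphatase DUSP6 at 213, 250 and 265 CPM and PHLDA1 at 16.8, 22.4 and 22.4 CPM.

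Receptors for immunoglobulin and microbial products were above the control with both hairpins in 13 of 18 and below it with both in 1, with medians of 0.33 and 0.48. FCGR2B, the inhibitory Fc gamma receptor, stood at 6.65, 12.8 and 12.01 CPM in the control, hairpin 1 and hairpin 2. FCGR2C stood at 17.4, 29.5 and 31.3 CPM and FCGR2A, the activating receptor, at 17.1, 25.6 and 28.996 CPM. All of these were at least 1.49-fold above the control. These 3 genes are near copies, as are FCGR1A and FCGR1B, so reads can be shared between them and their values are uncertain one by one. FCGR1B stood at 9.57, 12.1 and 15.2 CPM. By edgeR the log2 fold change of FCGR2C was 0.81 ± 0.11 (SE; adjusted p = 0.185), and by DESeq2 its adjusted p was 0.0109.

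Of 16 receptors and enzymes of chemoattractant and leukotriene signalling 8 were above the control with both hairpins and 3 below. Over all genes 34.8% were above it and 35.1% below. The anaphylatoxin receptors C3AR1, at 3.80, 6.04 and 7.29 CPM, and C5AR1, at 3.80, 5.12 and 7.53 CPM, were above it. LTB4R2, a leukotriene B4 receptor whose gene overlaps its neighbours, was below it, at 11.9, 6.27 and 6.96 CPM, as was LTC4S, leukotriene C4 synthase, at 8.69, 5.26 and 6.96 CPM. These counts are low and no gene of the list was called by edgeR.

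Granule genes are made in waves during neutrophil development, with those of the azurophil granule first. MPO, myeloperoxidase of the azurophil granule, stood at 10319, 10513 and 10443 CPM in the control, hairpin 1 and hairpin 2. Of 22 specific granule genes 9 were listed in the DMSO table, and the other 13, among them LTF, CAMP and LCN2, were not analysed here. Of 23 listed azurophil genes 12 were above the control with both hairpins and 5 below, with medians of 0.04 and 0.08. PRTN3, proteinase 3, stood at 38.7, 57.2 and 78.7 CPM, and its neighbour in the granule AZU1, azurocidin, at 161, 206 and 213 CPM. SRGN, the proteoglycan that packs granule proteins, stood at 918, 1159 and 1114 CPM, and SERPINB1, an inhibitor of granule proteases, at 52.5, 64.2 and 71.4 CPM. These members were above the control while MPO was level. Of the 9 specific granule genes 3 were above with both hairpins and 3 below, with medians of 0.16 and -0.05. At least 1.5-fold from the control with both hairpins were 1 above and 0 below, against 1.29% and 1.3% of all genes. The chitinase-like CHI3L1, one of those below, stood at 9.47, 8.68 and 7.24 CPM. Genes of gelatinase granules and secretory vesicles were above in 9 of 12 and below in 0, with medians of 0.12 and 0.32. MMP9, gelatinase B, stood at 159, 190 and 192 CPM, the complement receptor CR1 at 104, 139 and 129 CPM, and PLAUR, the urokinase receptor, at 19.6, 25.6 and 31.4 CPM. Genes of the NADPH oxidase were split, with 4 of 10 above and 3 below. Over all genes 34.8% were above with both hairpins and 35.1% below.

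Markers of other cell types were measured in part. Of 16 monocyte and macrophage markers 10 were listed, with medians of 0.03 and 0.49. With both hairpins 5 were above the control and 1 below, against 34.8% and 35.1% of all genes. With both hairpins 3 were at least 1.5-fold above and 0 below, against 1.29% and 1.3% of all genes. Their summed level was 442 CPM in the control, 460.5 under hairpin 1 and 443 under hairpin 2. Most of that was CSF1R, at 360, 367 and 328 CPM. MS4A7, a macrophage membrane protein, stood at 11.2, 16.9 and 21.8 CPM. IRF8, a factor of monocyte fate, stood at 20.9, 24.6 and 36.9 CPM, highest with hairpin 2. Of eosinophil, basophil and mast cell markers 14 of 16 were listed, and their summed level was 1797, 1972 and 2689 CPM, with 7 above the control with both hairpins and 6 below. Most of that sum was PRG2, the eosinophil granule major basic protein, at 1367, 1575 and 2271 CPM and named after its values were seen. Of the others EPX, eosinophil peroxidase, was below the control, at 116, 72.3 and 94.6 CPM, and the mast cell tryptase gene TPSAB1 above it, at 7.60, 11.8 and 13.9 CPM, with reads that its copy TPSB2 can share. Lymphoid markers summed to 52.3, 59.2 and 61.9 CPM (7 of 14 listed), erythroid and megakaryocyte markers to 39.4, 35.7 and 39.1 CPM (5 of 15), and fibroblast and epithelial markers to 58.4, 55.3 and 52.6 CPM (4 of 11). Among defining markers, CD14, CD3E, CD34 and the hemoglobin genes were not analysed here. Of 16 stem and progenitor genes 11 were listed, 5 above the control with both hairpins and 3 below, with medians of 0.08 and 0.04. Among those above, MYB, a factor of immature blood cells, stood at 503, 558 and 568 CPM. The part of other cell types in the results was not tested.

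Sterol synthesis and uptake genes, which SREBP2 turns on when membrane cholesterol falls, were above the control with both hairpins in 18 of 24 and below it in 3, with medians of 0.19 and 0.21. HMGCS1, at the start of the pathway, stood at 65.1, 85.3 and 85.8 CPM in the control, hairpin 1 and hairpin 2. INSIG1, which holds SREBP in the endoplasmic reticulum and is itself a target, stood at 74.4, 98.8 and 111 CPM, and STARD4, a sterol carrier, at 12.4, 18.3 and 17.3 CPM. All 3 were above the control with either hairpin. Of 13 fatty acid synthesis genes 6 were above and 2 below, against 34.8% and 35.1% of all genes. SCD, the desaturase, stood at 299, 349 and 341 CPM. By edgeR 12 of the 24 sterol genes and 2 of the 13 fatty acid genes had an unadjusted p under 0.05, against 6.07% of all genes.

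Cell cycle genes divided by phase, with small ratios. Of 23 genes of G2 and mitosis 20 were above the control with both hairpins and 0 below, with medians of 0.12 and 0.13. HMMR, a spindle protein, stood at 60.3, 73.9 and 74.6 CPM, and CCNB1, cyclin B1, at 89.8, 101 and 104 CPM. Of 23 S phase genes 2 were above and 18 below, with medians of -0.09 and -0.08. MCM5, a subunit of the replicative helicase, stood at 174, 156 and 149 CPM, and TK1, thymidine kinase, at 30.8, 26.9 and 26.3 CPM. The exceptions in S phase were CDT1, the licensing factor, at 361, 392 and 391 CPM, and RRM2, at 182, 183 and 190 CPM. By edgeR 4 of the 23 mitotic and 1 of the 23 S phase genes had an unadjusted p under 0.05, against 6.07% of all genes. The mitotic list has a median GC content of 43.2%. Over all genes of at least 5 CPM, the fifth from 40.8% to 45.4% GC had median log2 ratios of 0.021 with hairpin 1 and 0.0091 with hairpin 2. In the fifth with the lowest GC content they were 0.07 and 0.03. With an offset for GC content and length the medians of the mitotic list were 0.08 and 0.12, and those of the S phase list -0.08 and -0.08.

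Stress programs other than hypoxia were mixed. Of 24 genes of the ATF4 response to amino acid shortage 15 were below the control with both hairpins and 4 above, with medians of -0.06 and -0.09. CEBPB stood at 20.2, 13.8 and 16.0 CPM, and WARS, tryptophanyl-tRNA synthetase, at 163, 139 and 137 CPM. Heat shock genes were above in 9 of 12 and below in 1, with the cochaperone DNAJB1 at 36.4, 50.8 and 46.4 CPM. Genes of the unfolded protein response (4 of 16 above, 7 below) and p53 targets (9 of 19 above, 7 below) were on both sides. Cytosolic ribosomal protein genes were above in 1 of 36 and below in 14, and the other 21 were split between the hairpins, with medians of 0.02 and -0.07; over all genes 34.8% were above and 35.1% below.

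Genes below the control with both hairpins were led, after SMARCD2, by TMEM160, which encodes a mitochondrial membrane protein. It stood at 76.9 CPM in the control, 34.5 under hairpin 1 and 38.8 under hairpin 2. Both hairpins were far below the control, at 0.449 and 0.505 times its level. The edgeR log2 fold change was -1.07 ± 0.09 (SE; adjusted p = 0.0757), and by DESeq2 the adjusted p was 3.7e-09. Over both runs and hairpins the ratios of TMEM160 lay between -1.29 and -1.05.

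The other 10 were low, from 4.48 to 13.1 CPM in any library. NPW, a neuropeptide, stood at 13.1, 6.88 and 6.67 CPM, and CITED4, a transcription coactivator, at 11.2, 5.63 and 6.36 CPM. CTU1, which thiolates tRNA, stood at 8.42, 4.71 and 4.93 CPM, and CES1, a carboxylesterase, at 10.9, 6.82 and 6.17 CPM. In these genes both hairpins were well apart from the control and close to each other. NMB, a neuropeptide, stood at 7.94, 5.09 and 4.62 CPM, and NEO1, the receptor neogenin, at 10.0, 5.97 and 6.46 CPM. ACSL6, an acyl-CoA synthetase, stood at 7.40, 4.58 and 4.65 CPM, ZNF580, a zinc finger protein, at 12.2, 7.85 and 7.15 CPM, and HAPLN4, a link protein of the matrix, at 7.47, 4.50 and 4.48 CPM. The transcripts of the 12 genes furthest below were rich in GC, with a median of 62.1%, against 51.6% for the 12 furthest above and 48.2% for all genes of at least 5 CPM. With the offset for GC content and length, TMEM160 stood at -1.08 and -0.89 and NPW at -0.83 and -0.85.

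The genes in which the hairpins differed most from each other were these. CACNA1E, a calcium channel, stood at 4.72 CPM in the control, 3.91 under hairpin 1 and 13.1 under hairpin 2. PDLIM1, an actin-linked adaptor, stood at 5.40, 4.62 and 13.8 CPM, the transcription factor NFATC4 at 12.6, 11.2 and 27.8 CPM, and LGALS9, galectin 9, at 6.86, 5.75 and 13.96 CPM. All 4 were above the control with hairpin 2 alone. MARC1, a molybdenum enzyme, stood at 21.6, 19.7 and 5.38 CPM, and SEL1L3 at 10.7, 8.11 and 4.003 CPM. NAV3, a neuron navigator protein, stood at 20.5, 19.0 and 9.70 CPM, and FBN2, the matrix protein fibrillin 2, at 39.9, 28.7 and 14.7 CPM. These 4 were lowest with hairpin 2. Hairpin 1 was below the control too, with log2 ratios of -0.48 in FBN2, -0.39 in SEL1L3, -0.13 in MARC1 and -0.11 in NAV3. For MARC1 (-0.27 to 0.011) and NAV3 (-0.25 to 0.037) the counting interval with hairpin 1 included no change. In all of these 8 genes hairpin 2 lay further from the control than hairpin 1, and a second library of that hairpin in DMSO was not analysed here.

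Of the 12752 genes, 451 are listed in the DMSO table and not in the ATRA table. Of them 123 (27.3%) were above the control with both hairpins and 185 (41%) below, against 34.8% and 35.1% of all genes. Levels of the 451 genes were low, with a summed level of 675 CPM in the control, 601 under hairpin 1 and 720 under hairpin 2. Besides ACSL6 and TPSB2, the receptor subunit gene GABRD stood at 12.8, 17.1 and 18.2 CPM, and GLP1R, the receptor of glucagon-like peptide 1, at 7.09, 5.40 and 3.12 CPM. GLP1R had a log2 ratio of -0.39 with hairpin 1 and -1.18 with hairpin 2.

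Ratios within a sequencing run compare libraries free of the mix of runs, though runs of a library are not replicates. The 24 genes of both directions kept their side of the control in each run with each hairpin. They were chosen by their ratios in the same runs summed, so that this is no independent check of their side. SMARCD2 ran from -1.97 to -1.29 over the runs and hairpins, ADM from 0.47 to 0.95 and NPW from -1.39 to -1.02. The list counts changed little: hypoxia genes above the control with both hairpins were 20 in either run alone, interferon genes 35 in run 1 and 31 in run 2, and S phase genes below it 18 and 15. With run 2 columns only, edgeR called 8 genes, of which SMARCD2, TMEM160 and CCDC85B were below the control and HGF, GJA1, GBE1, BNIP3 and PFKFB4 above it. With run 1 columns only it called TMEM160 and CCDC85B. CCDC85B, GJA1 and GBE1 are named because these fits called them.

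**Figure D4:**
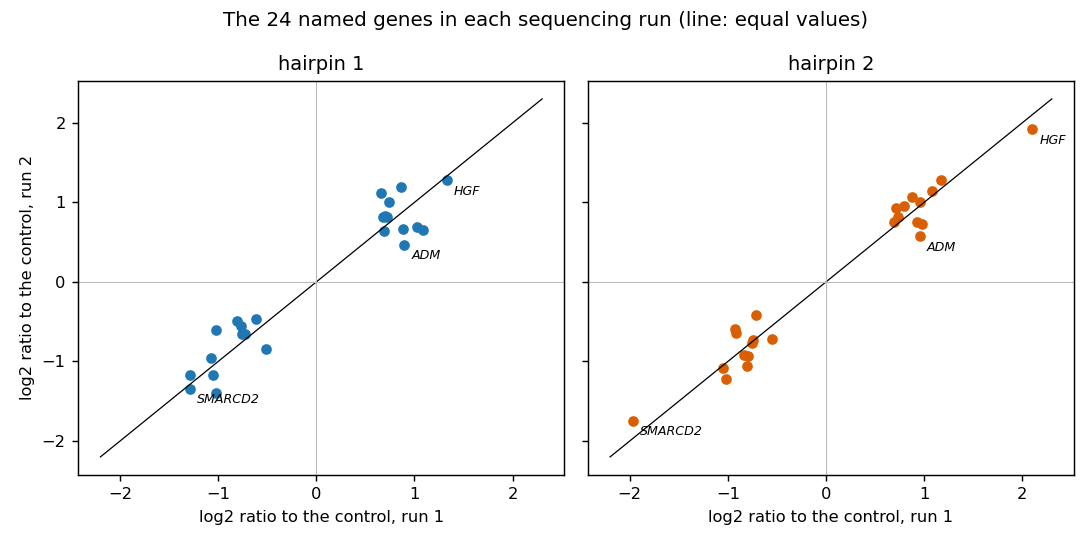
Log2 ratio to the DMSO control of the 24 genes in run 1 (x axis) and run 2 (y axis), with 1 panel per hairpin and a line of equal values. The genes were chosen by their ratios in these runs summed. All points lie to the lower left or upper right of both zero lines, and HGF with hairpin 2 stands at 2.10 in run 1 and 1.92 in run 2.

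The authors' deposited table for DMSO calls 104 genes higher (0.903% of 11515 with an adjusted p) and 42 lower (0.365%) in the knockdown. In the authors' deposited table HGF has a log2 fold change of 0.40 (adjusted p = 0.00056 in that table), less than the ratios of its counts. HGF is not alone in this. The deposited value is -0.96 for SMARCD2 and 0.051 for CACNA1E, where edgeR gave -1.55 and 0.83. How runs of 1 library were treated there is not stated in the sources used.

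Whether the effect of knockdown in DMSO differed from that in ATRA was tested as the interaction in an edgeR fit of all 6 libraries, over the 12301 genes in both tables and with a control library for each treatment. It called 6 genes (0.0488%), all with a more negative effect in ATRA. ENO2 stood at 27.2, 42.5 and 41.8 CPM in DMSO and at 34.0, 11.2 and 9.90 CPM in ATRA, in the order control, hairpin 1, hairpin 2. It was above its control in DMSO and below it in ATRA, with a difference in log2 effect of -2.32 ± 0.15 (SE; edgeR adjusted p = 0.0053). PFKFB4, at 112, 79.6 and 74.3 CPM in ATRA, had a difference of -1.30 ± 0.11 (edgeR adjusted p = 0.0184), and ADM, at 34.0, 21.3 and 20.6 CPM in ATRA, one of -1.50 ± 0.14 (edgeR adjusted p = 0.0365). BNIP3 stood at 186, 138 and 122 CPM in ATRA, with a difference of -1.10 ± 0.12 (edgeR adjusted p = 0.0447). The remaining calls, named because the test called them, were GBE1, the glycogen branching enzyme, at -0.92 ± 0.10 (edgeR adjusted p = 0.0447), and SPP1, osteopontin, at -1.56 ± 0.16 (edgeR adjusted p = 0.0439). With 1 knockdown library left out in turn, ENO2 stayed called in each of 4 fits (edgeR adjusted p up to 0.0435), PFKFB4 without hairpin 1 in DMSO alone, and the other 4 genes in none.

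The hypoxia, glycolysis and S phase lists stood on opposite sides of the control in the 2 treatments, each against its own single control. Of 20 hypoxia genes in both tables, 18 were above the control with both hairpins and 0 below in DMSO, while in ATRA 0 were above and 20 below, where 38.6% of all shared genes were below. Of 17 glycolysis genes 14 were above in DMSO and 16 below in ATRA. Of 23 S phase genes 18 were below in DMSO and 22 above in ATRA, where 38.2% of all shared genes were above. The interferon list had 35 of 44 above in DMSO and 23 in ATRA, and the metallothionein list 10 of 10 and 7. By the interaction test 3 of the 20 hypoxia genes, 1 of the 17 glycolysis genes and 0 of the S phase, interferon and metallothionein genes were called. Over all 12301 genes that test had 979 at an unadjusted p under 0.05 and called 6.

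**Figure D5:**
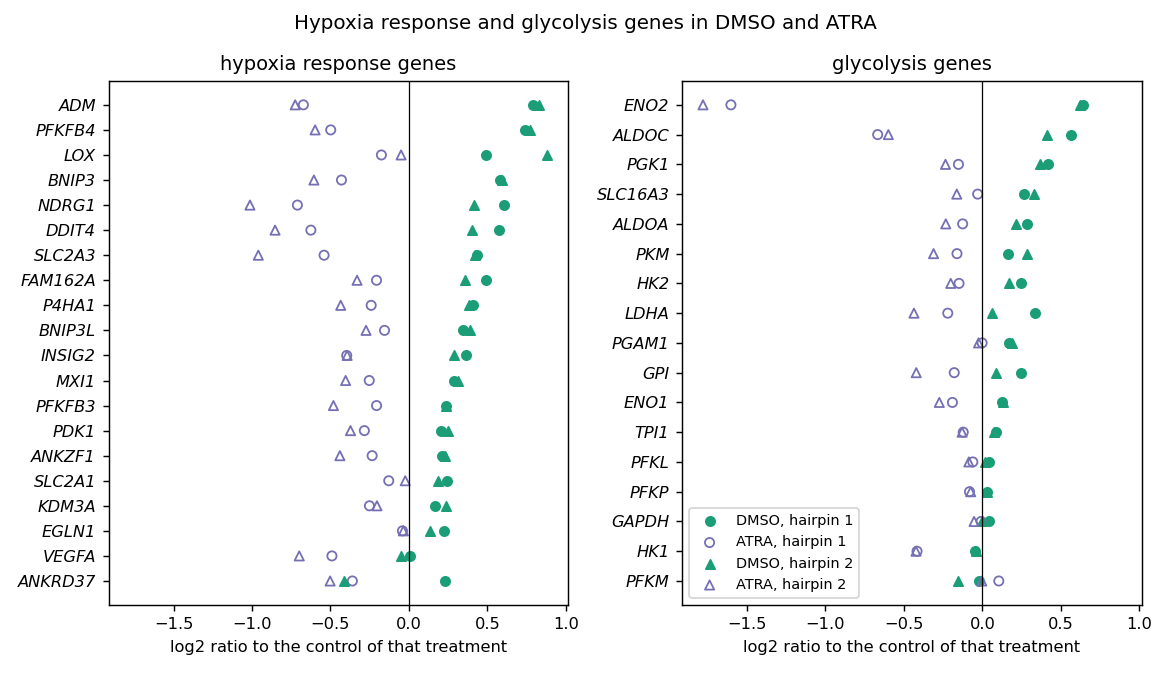
Log2 ratio of each hypoxia response gene (left) and glycolysis gene (right) to the control of the same treatment, for DMSO (filled green) and ATRA (open purple), with circles for hairpin 1 and triangles for hairpin 2. ENO2 has the widest gap, at 0.64 and 0.62 in DMSO and -1.60 and -1.78 in ATRA.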

How the data were processed

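RNA-seq of 6 NB4 libraries was used. Per the labels' protocols, GeneJET purified the RNA and the NEBNext Ultra RNA kit gave the libraries. The submitters' processing notes name build GRCh37.p13 and the tools STAR, bcl2fastq, DESeq2 and Picard 2.5.0; which program counted reads, whether by strand, and how low genes were removed are not given in the sources used here. Each deposited table holds raw read counts of genes, 2 columns for each library, which were read as the 2 sequencing runs in the series description; its 12 columns of normalized copies were not used. The authors' own log2 fold change and p-value from these tables are used only where named.

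The 2 columns per library were summed. Fits used R 4.3.3, edgeR 4.0.16 (TMM, quasi-likelihood test, Benjamini-Hochberg, threshold 0.05), DESeq2 1.42.0 and limma 3.58.1. Tables and figures used pandas 2.3.3, scipy 1.17.1 and matplotlib 3.10.9 in Python 3.11.15. The DMSO test covered 12752 genes and 3 libraries. Tested on data simulated for that comparison with 12749 genes, it called 71.6% of genes changed 1.5-fold, 97% of those changed 2-fold and 6 of 12549 unchanged genes. The simulation gave both hairpins the same fold and changed only genes of at least 5 CPM. Its spread between libraries was smoothed over genes, from the 2 hairpin libraries. These shares therefore need not hold for the real data, where the hairpins differ. The labels do not say that libraries are separate cultures, so p-values measure only the spread between these samples, which may be technical. An SE is the size of the log2 fold change over the root of its F statistic.

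Named genes have a mean of at least 5 CPM in DMSO: the 12 furthest above and the 12 furthest below the control by the smaller of their 2 ratios, the 4 in each direction that differ most between the hairpins, up to 4 of each gene list by the same measure, 4 listed in the DMSO table only, and SMARCD1, SMARCD2, SMARCD3 and CEBPE. The values of 1 gene that this rule picks are not reported here. The gene lists and rules were chosen with earlier results of these data known. GC content and length came from GENCODE release 29 for 97.3% of genes, and promoters from RefSeq (GRCh38.p14) for 9858 genes, matched by symbol; no coordinates of the deposited files were used. Alternatives were other scalings, tools, filters, single runs, a GC and length offset and leaving out each hairpin. Runs at equal depth, and list counts with the offset, were added after seeing the data.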

Additional observations from a re-analysis of the deposited data

Results flagged for a closer look

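For 6 genes the effect of knockdown differed between the treatments, by the edgeR test of the interaction over 12301 genes. The log2 effect in ATRA minus that in DMSO was -2.32 for ENO2, -1.30 for PFKFB4, -1.50 for ADM, -1.56 for SPP1, -1.10 for BNIP3 and -0.92 for GBE1. Each was above the control with both hairpins in DMSO and below it with both in ATRA. SPP1 stood at 2.51, 5.33 and 5.43 CPM in DMSO and at 210.4, 157 and 146 CPM in ATRA, in the order control, hairpin 1, hairpin 2. GBE1 stood at 127, 191 and 181 CPM in DMSO and at 108, 85.8 and 81.1 CPM in ATRA. With 1 control library per treatment, a deviation of either control would move both hairpins of that treatment, and its part in these values was not tested.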

How the results depend on the processing

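The limits are 1 control library and 1 library per hairpin. No call of a knockdown effect in DMSO held in every fit. The main test called 0 genes, as did the fits with DESeq2 size factors, total counts, upper quartile scaling, a minimum mean of 5 CPM, limma-voom, the 4-group fit and the GC and length offset; the filter kept all 12752 genes, so no filter gives the same fit. DESeq2 called 24 genes, run 1 alone 2 and run 2 alone 8, and leaving out each hairpin in turn gave 0 to 21 (21 without hairpin 1, 0 without hairpin 2).

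With the hairpin as a replicate block over both treatments, 116 genes were called in DMSO (85 above, 31 below) and 129 for the difference between treatments. The labels do not say that the libraries of a hairpin share a culture. Across 8789 genes, which are not independent, hairpin 2 minus hairpin 1 in one treatment had r = 0.257 with the same in the other. That fit removes the spread between hairpins, and SMARCD2 had an edgeR adjusted p of 1.8e-08 in it.

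For the difference between treatments, DESeq2 called 48 genes, total counts 6, and leaving out 1 knockdown library 1 to 2. Genes at least 1.5-fold from the control numbered 635 with hairpin 1 (1063 in run 2 alone, 57 of at least 5 CPM) and 880 with hairpin 2 (176 of at least 5 CPM), and 693 were that far apart between the hairpins (1082 in run 2 alone). Low counts thus carry most of these genes. The counts recomputed for 10 gene lists stayed within 1.5 times their value. None of the 38 genes followed for the DMSO effect, or of the 6 for the difference, reversed. These lists and genes were mostly picked for values far from the control, so that this says little of the others. The ratio of SMARCD1 with hairpin 2, for example, was -0.054 in run 1 and 0.011 in run 2. Of 38 lists, 24 kept the sign of both medians in 5 alternatives (total counts, each run alone, runs at equal depth, the offset). Those that did not include the specific granule list (hairpin 1 from 0.16 to -0.098 in run 2, hairpin 2 from -0.051 to 0.18 in run 1), the SWI/SNF subunits (hairpin 2 from -0.011 to 0.0099 in run 1) and the cytosolic ribosomal proteins (hairpin 1 from 0.017 to -0.0041 with total counts).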
